A study of Mus musculus with 24 samples.

Results

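The chromatin around Myc was examined from 20 kb upstream to 2 Mb downstream of its start site, a stretch that takes in the non-coding gene Pvt1, a long gene-poor interval and the distal blood enhancer cluster about 1.7 Mb downstream. Myc lies on the plus strand at chr15:61985391-61990374 in mm10 (GENCODE M21). Overlapping peaks of the 11 deposited ATAC-seq peak lists were merged, which gave 64 regions around Myc out of 100446 in the genome. Of these, 16 lay in the enhancer cluster segment, between 1.6 and 1.8 Mb from the start. The 3 deposited tables of differential sites held 43 sites in the same stretch. ATAC-seq maps open chromatin through the insertions of the Tn5 transposase, so a peak marks DNA that the enzyme could reach.

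The 24 libraries came from sorted bone marrow cells of C57BL/6 mice and all carried Cre +/-, controls included. Daxx-WT mice were Daxx +/+, Daxx-KO mice were Daxx F/F, and DKO mice were Daxx F/F Pu.1 F/F. Long-term haematopoietic stem cells (LT-HSCs), CMPs (common myeloid progenitors) and the granulocyte-monocyte progenitors called GMPs had 2 Daxx-WT and 2 Daxx-KO libraries each. Their labels give no time, and the methods place them 3 weeks after tamoxifen, with a Cre expressed from Rosa26. LT-HSCs at 3 days post induction (d.p.i.) had 2 Daxx-WT and 3 Daxx-KO libraries. Per the methods, mice analysed at 3 d.p.i. carried the same Rosa26 Cre. They received tamoxifen by intraperitoneal injection, and the group without a time in its labels by oral gavage at another dose. KLS cells (Kit+ Lin- Sca-1+) at 3 weeks post induction (w.p.i.) had 2 Daxx-WT, 3 Daxx-KO and 2 DKO libraries. The methods name no Cre line for the KLS libraries of the ATAC-seq, although they give Mx1Cre for KLS cells taken for RNA at that time. The methods describe the Pu.1 line as crossed to Mx1Cre, which is induced through the interferon response to pI:pC. Per the methods the mice were of both sexes and usually young adults when treated, and the labels give no age.

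Myc is a transcription factor that drives growth, ribosome production and division, and it binds DNA as a partner of Max. In blood its transcription depends on a cluster of enhancers far downstream, which are bound by several haematopoietic factors and reach the promoter over the intervening gene desert. In stem cells the level of Myc sets the balance between self-renewal and differentiation. Daxx is a chaperone that places histone H3.3 at repeats and other silent chromatin, and Pu.1, encoded by Spi1, is the leading myeloid and lymphoid transcription factor of the ETS family.

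Sequences are shown for the cluster regions that carry most of the results: both that had a peak in all 11 lists, +1663.0 and +1672.9 kb, and a further 3 at which a site of the DKO table lay. Each is the central 300 bp of the merged region, plus strand, from the mm10 reference (GRCm38). Capitals mark exact matches, on either strand, to 5 motifs: GAGGAAGT for Pu.1, TGTGGTT for Runx, AGATAA for Gata, TTGCNNAA for C/EBP and CACGTG for the E-box to which Myc and Max bind.
Region +1625.9 kb, chr15:63611163-63611462: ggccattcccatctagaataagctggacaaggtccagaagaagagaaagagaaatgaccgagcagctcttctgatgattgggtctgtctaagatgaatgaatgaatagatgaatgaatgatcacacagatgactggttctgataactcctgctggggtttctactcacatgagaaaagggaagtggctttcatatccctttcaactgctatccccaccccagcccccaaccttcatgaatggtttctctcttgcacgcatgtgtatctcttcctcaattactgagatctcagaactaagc
Region +1663.0 kb, chr15:63648267-63648566: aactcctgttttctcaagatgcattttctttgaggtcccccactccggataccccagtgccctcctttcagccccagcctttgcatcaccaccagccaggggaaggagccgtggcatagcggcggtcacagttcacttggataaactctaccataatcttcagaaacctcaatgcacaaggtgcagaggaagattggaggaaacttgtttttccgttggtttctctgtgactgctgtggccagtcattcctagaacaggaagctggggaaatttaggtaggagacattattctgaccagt
Region +1672.9 kb, chr15:63658152-63658451: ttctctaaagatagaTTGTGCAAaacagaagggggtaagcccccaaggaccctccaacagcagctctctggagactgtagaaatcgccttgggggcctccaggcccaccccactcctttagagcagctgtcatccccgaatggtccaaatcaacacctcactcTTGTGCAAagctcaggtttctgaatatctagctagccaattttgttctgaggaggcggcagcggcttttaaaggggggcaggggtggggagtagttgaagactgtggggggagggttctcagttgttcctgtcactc
Region +1680.1 kb, chr15:63665319-63665618: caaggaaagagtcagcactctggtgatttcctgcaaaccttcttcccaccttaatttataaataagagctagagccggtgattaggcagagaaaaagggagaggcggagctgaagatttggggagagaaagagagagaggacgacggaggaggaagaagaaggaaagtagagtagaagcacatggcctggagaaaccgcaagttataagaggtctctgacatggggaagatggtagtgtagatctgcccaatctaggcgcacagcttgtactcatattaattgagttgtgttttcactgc
Region +1693.6 kb, chr15:63678853-63679152: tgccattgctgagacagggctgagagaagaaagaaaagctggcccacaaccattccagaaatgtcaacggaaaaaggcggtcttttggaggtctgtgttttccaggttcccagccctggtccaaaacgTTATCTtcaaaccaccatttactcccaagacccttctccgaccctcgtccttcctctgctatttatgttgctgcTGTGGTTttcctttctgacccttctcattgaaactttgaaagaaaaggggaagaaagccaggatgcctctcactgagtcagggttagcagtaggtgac
These DNA stretches held few exact matches. The +1672.9 kb region held TTGTGCAA, a minus-strand match to the C/EBP motif, at positions 16 and 164 counted from 1 at the 5′ end. The +1693.6 kb region held 1 Gata match and 1 Runx match. In the remaining 3 no letters are in capitals. For all 16 cluster regions, and for the genome, only the central 300 bp was searched, so matches elsewhere in a region were not counted. The Pu.1 motif was found in 1, at +1631.8 kb (6.2%, against 8.19% of all 100446 regions). The Runx motif was in 1 (6.2% against 11.26%) and the Gata motif in 3 (18.8% against 13.62%). The C/EBP motif was in 1 (6.2% against 14.58%) and the E-box in 0 (against 5.43%). Nearly all cluster regions are distal. Among regions of the genome with no transcript start within 1000 bp, the shares were 9.3%, 12.88%, 15.56%, 16.3% and 5.1% in the same order. The central 300 bp of the region over the Myc start held none of the 5.

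The targeted genes were checked first. At a Daxx site on chr17:33909551-33912700 the DKO libraries held 97.56 and 74.01 scaled reads (reads per site divided by the authors' library constant) and the Daxx-WT libraries 262.69 and 301.62. At the last listed site of Spi1, over an exon, the DKO libraries held 2.12 and 4.68 scaled reads and the Daxx-WT libraries 31.06 and 58.13. At 5 other listed sites of Spi1 the DKO libraries held more reads than both controls. Listed sites over Daxx exons were lower in every Daxx-KO library of the LT-HSC and KLS tables than in both controls. Mean depth was 4.21 to 16.0 reads per 600 bp window over the libraries of the 3 tables, and the depth behind the peak lists is not given in the sources used here. After the authors' scaling, the DKO libraries averaged 10.6 and 14.95 reads per window and the matching Daxx-WT libraries averaged 7.39 and 8.19. The imbalance was mixed for Daxx-KO KLS cells, with 9.03 reads per window above and 3.98 and 5.27 below both controls at 7.60 and 8.61. It was mixed for LT-HSCs too, with 8.71, 4.01 and 10.1 against 10.8 and 7.41. Stem cell genes had promoter peaks in every list (4 to 6 of 6 genes), T cell genes in none (0 of 3). Granulocyte and monocyte genes had them at 6 or 7 of 7 in the CMP and GMP lists and at 2 to 4 in the others, B cell genes at 1 to 3 of 3 and erythroid genes at 1 or 2 of 3.

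The start of Myc was accessible in every population and genotype. The region over it (−0.1 kb, chr15:61984345-61986163, first exon and upstream flank) had a peak in all 11 lists, as had the start of Pvt1 (+52.7 kb, chr15:62037009-62039266). Pvt1 is a non-coding RNA gene that neighbours Myc and whose promoter competes with it. In all, 5 of the 64 regions were in all 11 lists. Of these, 3 were distal (no transcript start within 1000 bp), which is 3 of 52 distal regions around Myc, where 5.61% of distal regions in the genome were in every list. They were both cluster regions shown above and +1910.6 kb, within the gasdermin gene Gsdmc4. A second region, 1.9 kb upstream of Myc, was in every list but the DKO list. Another, at +1.9 kb over part of the first intron and exon 2 of Myc (chr15:61986636-61988025), was in 8 lists, namely all 6 without a time, that of Daxx-WT LT-HSCs at 3 d.p.i. and that of Daxx-KO KLS cells.

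Fold enrichment over background, as given by the authors' peak caller, was deposited for 5 of the lists. At the Myc start it was 6.35 in Daxx-WT and 6.33 in Daxx-KO LT-HSCs at 3 d.p.i., and 4.94, 5.58 and 4.24 in Daxx-WT, Daxx-KO and DKO KLS cells. Each list has its own scale, so the peak was placed by its percentile within its list. It stood at 51.8 and 49.6 in the LT-HSC lists and at 34.6, 38 and 34.2 in the KLS lists, near the median peak in the former and below it in the latter. Each group has 1 list, so no test between lists was possible.

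The density of regions was uneven along the locus, as the map of regions by list shows. The 390 kb on the Pvt1 side (10 kb to 0.4 Mb) held 22 regions, or 5.64 per 100 kb. The next 800 kb held 8, or 1 per 100 kb. No list had a peak in the 150 kb from 1.2 Mb onwards, the interval that holds the Notch-driven enhancer of T cells. The cluster held 16, or 8 per 100 kb, and the 200 kb beyond it 13. Most of the cluster lies within the introns of Gm41335, a long non-coding RNA gene on the minus strand.

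**Figure D1:**
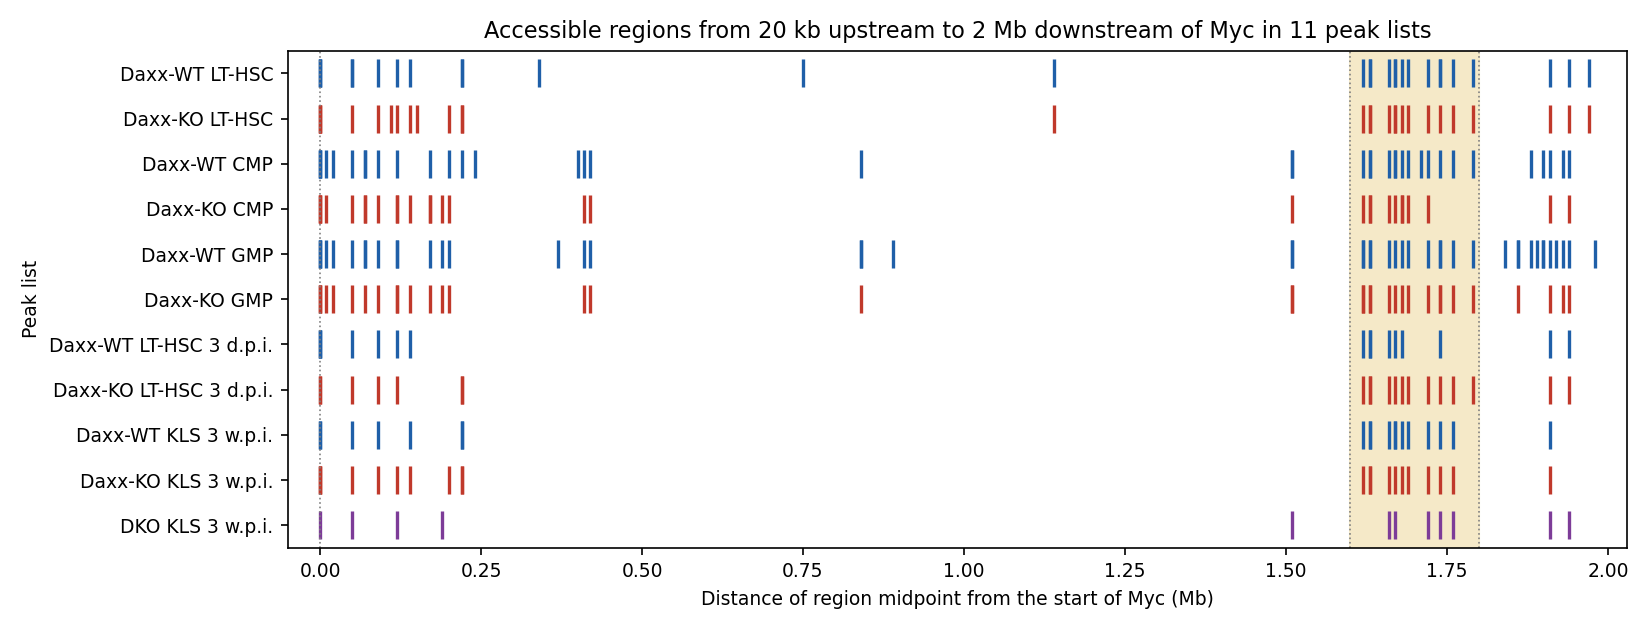
Regions with a peak in each of the 11 lists (rows) by distance of the region midpoint from the start of Myc in Mb (horizontal axis). Blue marks are Daxx-WT, red Daxx-KO and purple DKO lists, and the shaded band is the enhancer cluster, where the lists held 5 (DKO) to 13 of the 16 regions.

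Within the cluster, 8 of the 16 regions were present in at least 10 lists. Besides +1663.0 kb (chr15:63647488-63649345) and +1672.9 kb (chr15:63657557-63659046), those at +1616.6, +1625.9, +1631.8 and +1680.1 kb were present in every list but the DKO list. That pattern was shared by 5 of the 64 regions around Myc (7.81%) and by 6.48% of all regions. The regions at +1719.5 and +1736.6 kb were in 10 lists, including DKO, and those at +1693.6 and +1755.4 kb in 9. The +1786.3 kb region was in the LT-HSC, Daxx-WT CMP and both GMP lists, in the Daxx-KO list at 3 d.p.i. and absent from all KLS lists. The remaining 5 were in 1 to 4 lists each.

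The cluster held the strongest peak of the locus in each scored list. This was +1663.0 kb in Daxx-WT LT-HSCs at 3 d.p.i. (fold enrichment 9.20, percentile 78.2), in Daxx-KO LT-HSCs at 3 d.p.i. (11.4, percentile 88.9) and in Daxx-WT KLS cells (8.41, percentile 85.3). It was +1719.5 kb (chr15:63704011-63705705) in Daxx-KO KLS cells (10.9, percentile 92.9) and DKO KLS cells (8.23, percentile 92.8). In Daxx-WT KLS cells +1719.5 kb had a fold enrichment of 7.73 and a percentile of 78.7, in Daxx-KO LT-HSCs at 3 d.p.i. 6.73 and 54.6, and in Daxx-WT LT-HSCs at 3 d.p.i. no peak. No table listed a differential site there. The start of Myc ranked behind 3 to 9 cluster regions in these lists. The median percentile of the cluster peaks was 63.0 and 54.6 in the Daxx-WT and Daxx-KO lists of LT-HSCs (3 d.p.i.) and 64.2, 73.1 and 45.9 in the Daxx-WT, Daxx-KO and DKO lists of KLS cells. Over all distal regions of the same lists, in the same order, it was 39.8, 41.6, 41.2, 43.8 and 34.0.

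**Figure D2:**
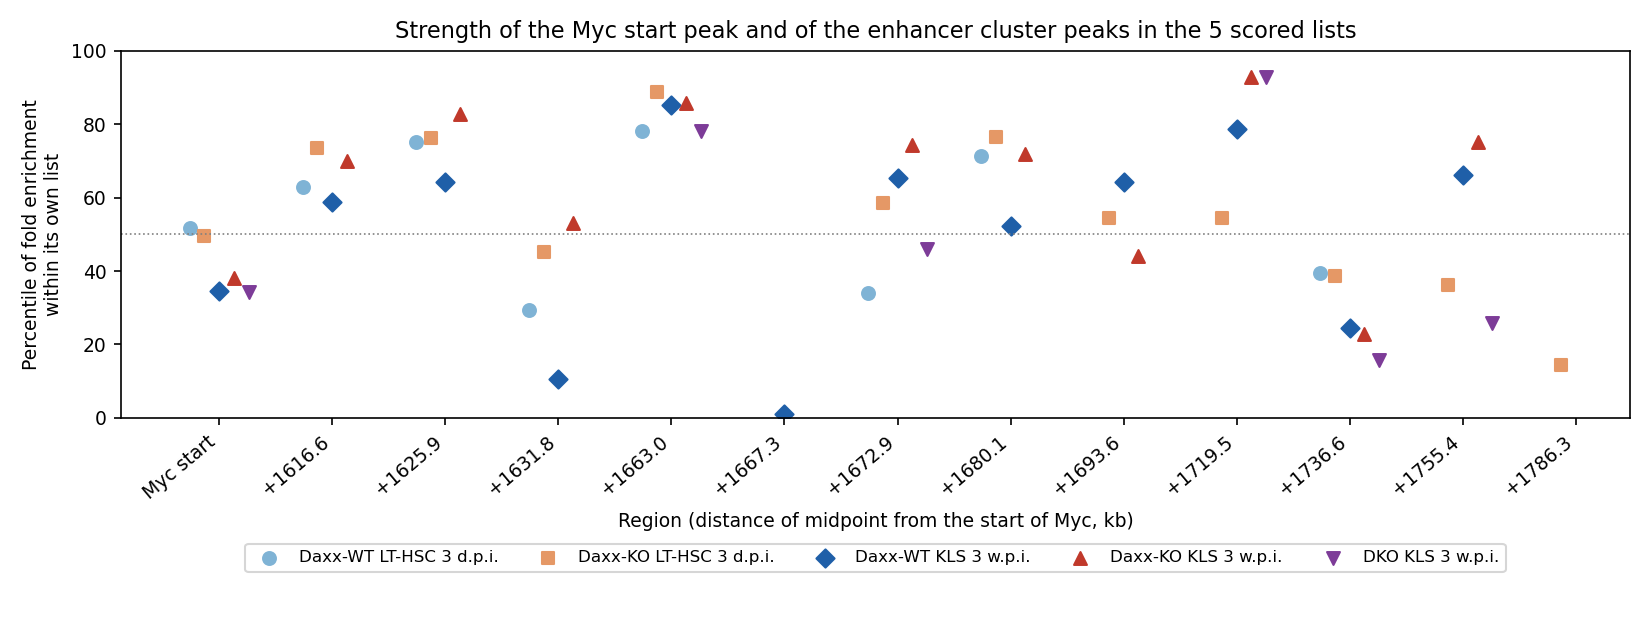
Percentile of the fold enrichment within its own list (vertical axis) for the Myc start and each cluster region with a scored peak (horizontal axis, distance in kb); symbols stand for the 5 scored lists and a missing symbol for no peak. The Myc start lies between 34.2 and 51.8, and +1663.0 kb between 78.1 and 88.9.

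The first genotype question was whether regions open in Daxx-WT cells lacked a peak after Daxx loss. In LT-HSCs 1 of 13 cluster regions of the Daxx-WT list was absent from the Daxx-KO list (7.69%), where 8.81% of all distal Daxx-WT regions were absent. In CMPs it was 5 of 13 (38.5%, against 34.2%). In GMPs it was 0 of 13 (against 33.3%). At 3 d.p.i. it was 0 of 7 in LT-HSCs (against 12.5%), and in KLS cells 1 of 11 (9.09%, against 11.6%). In CMPs the 5 were +1667.3, +1712.7, +1736.6, +1755.4 and +1786.3 kb. Among these, +1736.6, +1755.4 and +1786.3 kb were present in both GMP lists. The Daxx-KO CMP and GMP lists were shorter than those of Daxx-WT (50590 against 66070 peaks and 49677 against 65306). Genome shares here and in the DKO comparison were not matched for peak strength. Cluster peaks had a higher median percentile than distal regions in every scored list, so whether the cluster differs from equally strong regions was not tested. In the opposite direction, cluster regions of the Daxx-KO list that the Daxx-WT list lacked numbered 0 of 12 in LT-HSCs (against 8180 of 48053 distal regions), 1 of 9 in CMPs (against 7.94%), 0 of 13 in GMPs (against 5.49%) and 0 of 10 in KLS cells (against 42.0%). At 3 d.p.i. they numbered 4 of 11 in LT-HSCs (36.4%, against 32.8%), which were +1693.6, +1719.5, +1755.4 and +1786.3 kb.

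The DKO list had 5 cluster regions, where the Daxx-WT and Daxx-KO KLS lists had 11 and 10. Of 11 cluster regions in the Daxx-WT KLS list 6 had no peak in the DKO list (54.5%), and of 10 in the Daxx-KO KLS list 5. Over the genome 67.8% and 76.0% of distal regions were absent in the same way. Peaks numbered 22156 in the DKO list, 33325 for Daxx-WT and 44694 for Daxx-KO. With every scored list reduced to its 22156 strongest peaks, 4 of 8 cluster regions of Daxx-WT were without a DKO peak, against 61.0% of distal regions. The absent regions were +1616.6, +1625.9, +1631.8, +1667.3, +1680.1 and +1693.6 kb, all in the nearer part of the cluster, where +1663.0 and +1672.9 kb were kept, while +1719.5, +1736.6 and +1755.4 kb in its farther part were kept.

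**Figure D3:**
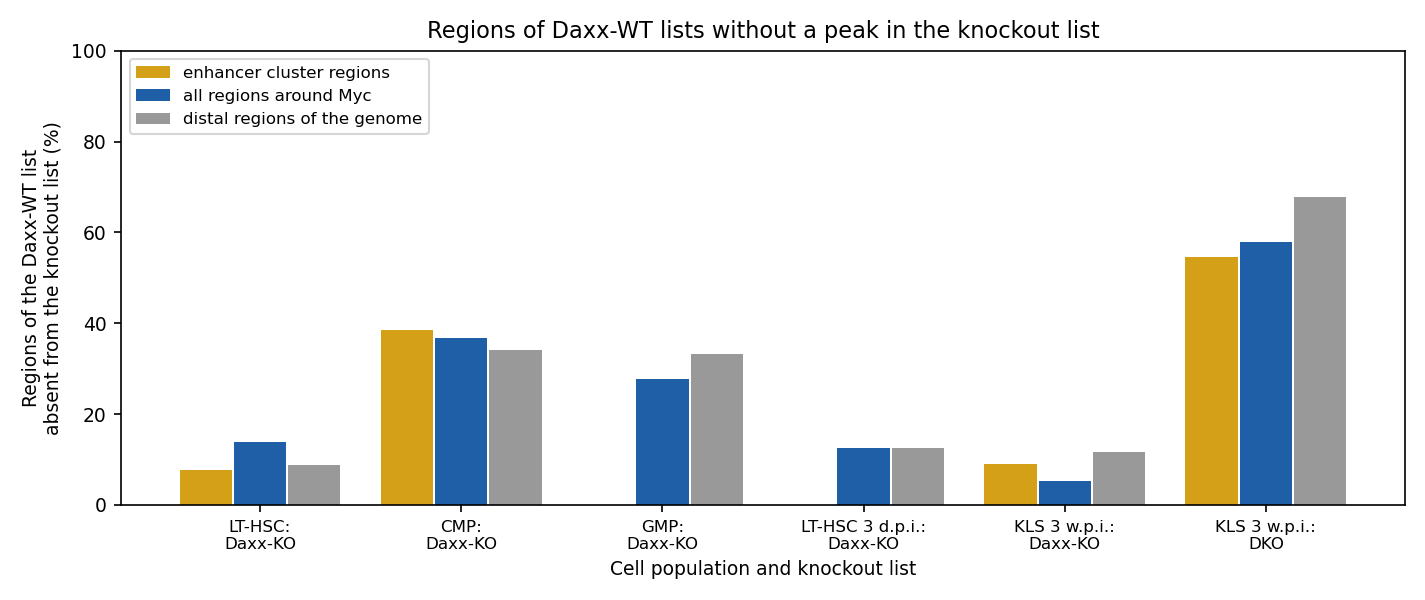
Percentage of the regions in a Daxx-WT list without a peak in the knockout list of the same population (vertical axis), for the cluster, for all regions around Myc and for all distal regions of the genome. In DKO KLS cells the bars stand at 54.5%, 57.9% and 67.8%, and no cluster region was absent in GMPs or LT-HSCs at 3 d.p.i. The bars around Myc include regions near transcript starts, unlike the distal bar. Over all regions of the genome, distal or not, the DKO share was 48.0% (not drawn).

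Only a few regions separated the genotypes across populations. Of the 64 regions 3 (4.69%) were in at least 2 Daxx-WT lists and no Daxx-KO or DKO list, at +838.8, +1876.7 and +1897.6 kb, against 2.6% of all regions. All 3 came from Daxx-WT CMPs and GMPs, whose lists were longer than those of Daxx-KO. Those at +1876.7 and +1897.6 kb lay in the tandem gasdermin genes Gsdmc3 and Gsdmcl2, between whose copies reads can be misplaced. No region (0 of 64, against 1.06%) was in at least 2 knockout lists and no Daxx-WT list.

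Other patterns split the lists by population, which also differed in other ways. Per the methods, the CMP and GMP libraries had an additional single-read sequencing run. Their lists held 49677 to 66070 peaks, the 5 scored lists 22156 to 44694, and the LT-HSC lists without a time 65455 and 70455. Cell type cannot be told apart from these differences. There were 6 regions present in all 4 CMP and GMP lists and in no other, at +14.4, +71.1, +167.0, +407.4, +415.9 and +1513.3 kb, which is 9.38% of the regions around Myc and 3.03% of all regions. Of these, +71.1 and +167.0 kb lay in introns of Pvt1, and none lay in the cluster. Counting any region found in at least 1 CMP or GMP list and nowhere else, there were 30 (46.9%, against 20.7%), and 9 of them were in Daxx-WT GMPs alone (14.1%, against 5.47%). Among those 9, 5 were between +1843.4 and +1924.6 kb in the tandem gasdermin genes Gsdmc2, Gsdmc3, Gsdmcl2 and Gsdmc4, near-identical copies between which reads can be misplaced. A pattern of LT-HSCs and KLS cells, defined without the 3 d.p.i. and DKO lists, was found once. The +221.3 kb region in Pvt1 (chr15:62206214-62207098) was in the Daxx-WT and Daxx-KO lists of LT-HSCs and KLS cells and in no CMP or GMP list, a pattern of 0.929% of all regions. The neighbouring +224.7 kb region (chr15:62209706-62210566) had the same pattern apart from a peak in Daxx-WT CMPs. Neither had a peak in the Daxx-WT list of LT-HSCs at 3 d.p.i. or in the DKO list. Of the 12 regions around Myc in the DKO list, 4 were not in the Daxx-WT KLS list (33.3%, against 21.1% of all and 40.1% of distal DKO regions). Of these, +192.6, +1512.1 and +1939.4 kb were absent from the Daxx-KO KLS list too and present in at least 3 of the CMP and GMP lists. The +1939.4 kb region was also in every LT-HSC list, so it was not particular to CMPs and GMPs. A DKO peak shared with any CMP or GMP list and neither other KLS list was found for 4.69% of regions around Myc and 2.28% of all regions.

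Read counts per library were deposited only for sites that had passed the authors' own test of these comparisons, at a p cut-off of 0.0001 on 600 bp windows. Groups of libraries therefore did not overlap at nearly every listed site (11865 of 11927 for the LT-HSC table, 17234 of 17311 for Daxx-KO KLS cells and 50909 of 50928 for DKO KLS cells), and separation at a site near Myc is not in itself a result. Differences below were estimated with limma on log2(scaled reads + 1) over all sites of a table, and the false discovery rate (FDR) was computed over all windows that had been tested.

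In LT-HSCs at 3 d.p.i. 2 sites were listed around Myc, 1 lower and 1 higher in Daxx-KO, where 70.9% of all listed sites were lower. The lower site was on the flank of the +1680.1 kb cluster region (chr15:63665651-63666250), with 55.98, 52.50 and 31.67 scaled reads in the Daxx-KO libraries and 90.15 and 82.53 in the controls. The log2 difference was −0.91 ± 0.29 (SE; limma FDR = 0.608). The higher site was at +1939.0 kb beyond the cluster (chr15:63924101-63924700), over the gasdermin pseudogene Gsdmcl-ps, with 55.98, 54.40 and 63.34 scaled reads in the Daxx-KO libraries and 32.68 and 33.76 in the controls. Its log2 difference was 0.78 ± 0.22 (SE; limma FDR = 0.385). Every Daxx-KO library lay below, respectively above, both controls, and neither site passed the FDR of 0.05. With each library's reads divided by its mean per window, the lower site stood at −0.575 and the higher at 1.11. Among all 11927 listed sites 0.0% passed it, while 96.0% had an unadjusted p under 0.05, including both near Myc.

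In KLS cells at 3 w.p.i. 11 sites were listed for Daxx-KO against Daxx-WT, 3 higher and 8 lower, where 80.9% of all listed sites were lower. Again none passed the FDR (0.0% of all 17311 listed sites). All 11 had an unadjusted p under 0.05, as had 96.8% of the table. The 3 higher sites were neighbours in Pvt1. At +184.6 kb (chr15:62169551-62170450, intron) the Daxx-KO libraries held 50.11, 76.98 and 42.33 scaled reads and the Daxx-WT libraries 15.51 and 16.05, a log2 difference of 1.73 ± 0.34 (SE; limma FDR = 0.284). At +192.5 kb (exon) the values were 36.74, 78.73 and 42.33 against 20.07 and 22.93, a log2 difference of 1.18 ± 0.38 (SE; limma FDR = 0.393). At +196.1 kb (intron, within a peak of the Daxx-KO KLS list that the Daxx-WT list lacked) they were 35.63, 69.98 and 50.80 against 24.63 and 18.34, a log2 difference of 1.203 ± 0.36 (SE; limma FDR = 0.322). Daxx-KO replicate 2 was the highest library at all 3. Scaled to the mean per window, the differences were 2.21, 1.66 and 1.68.

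The 8 lower sites were weakly covered, and 7 of them lay in no peak of either group. The Daxx-KO libraries held 2.82 to 23.38 scaled reads there and the Daxx-WT libraries 20.07 to 40.14. Of the listed sites in the table outside peaks, 91.4% were lower in Daxx-KO. The only one in the cluster was at +1754.7 kb (chr15:63739751-63740400), at the edge of the +1755.4 kb region. It held 6.68, 5.25 and 2.82 scaled reads in the Daxx-KO libraries and 23.72 and 21.78 in the controls, a log2 difference of −2.06 ± 0.36 (SE; limma FDR = 0.284). Scaled to the mean per window, the 8 lower sites stood between −0.56 and −1.62, and those at +141.8 and +750.5 kb moved by over 1.5 times, to −0.625 and −0.558. No listed site of this table lay in the part of the cluster between +1616.6 and +1736.6 kb.

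In DKO KLS cells 30 sites were listed around Myc, 23 higher and 7 lower than in the same 2 Daxx-WT libraries as above. Of these, 21 higher and 4 lower passed the FDR (25 of 30), where 67.3% of all 50928 listed sites passed as higher and 14.9% as lower, or 82.2% in either direction. All 20 sites outside peaks were higher, and 7 of the 10 inside peaks were lower, near the shares over all listed sites, of which 11.8% outside peaks and 69.8% inside were lower. Peaks and direction rest on the same reads, so the 2 are not independent. The SE was 0.36 at every site of this table, because limma gave all its sites a common variance. The FDR at a site thus does not reflect the spread between its own libraries. In the Daxx-KO tables the SE differed between sites, so numbers of calls are not comparable with those for DKO.

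In the cluster, 5 sites overlapped peaks and all were lower in DKO, as were 65.9% of listed distal sites in peaks. At +1625.7 kb (chr15:63610601-63611650) the DKO libraries held 20.15 and 48.72 scaled reads and the Daxx-WT libraries 108.27 and 86.65, a log2 difference of −1.59 (limma FDR = 0.000329). At +1680.2 kb (chr15:63665001-63666200) they held 37.11 and 29.98 against 129.57 and 68.00, a log2 difference of −1.47 (limma FDR = 0.00106). At +1693.5 kb (chr15:63678251-63679500) they held 34.99 and 47.78 against 107.38 and 95.42, a log2 difference of −1.29 (limma FDR = 0.0053). These 3 fell within regions that had no DKO peak, and their sequences are among those shown above.

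At both cluster regions with a peak in all 11 lists the difference was smaller and did not pass the FDR. Such regions have a DKO peak by definition, called from the same reads, so this contrast is not an independent result. On the near flank of +1663.0 kb (site +1662.2 kb) the DKO libraries held 58.32 and 46.84 scaled reads and the Daxx-WT libraries 105.61 and 88.84, a log2 difference of −0.88 (limma FDR = 0.139). At +1673.1 kb, the most deeply covered cluster site, they held 174.97 and 134.91 against 229.85 and 243.49, a log2 difference of −0.62 (limma FDR = 0.746). The cluster also held 2 higher sites, both between peaks. At +1728.1 kb the values were 31.81 and 59.96 against 11.54 and 7.68, a log2 difference of 2.10 (limma FDR = 1.16e-06), and at +1685.7 kb 38.17 and 58.09 against 23.96 and 21.94, a log2 difference of 1.01 (limma FDR = 0.0531).

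**Figure D4:**
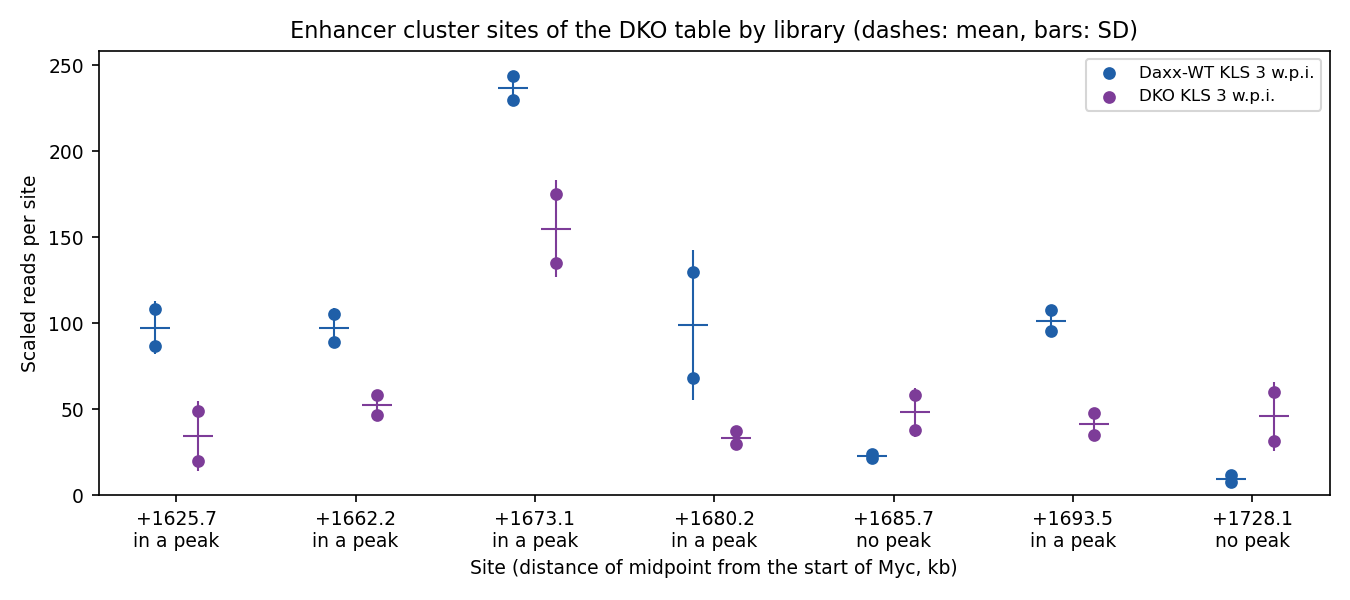
Scaled reads per site (vertical axis) in the 2 Daxx-WT (blue) and 2 DKO (purple) KLS libraries at the 7 cluster sites of the DKO table; points are libraries, dashes means and bars SD. The DKO libraries lie below both controls at the 5 sites in peaks and above them at +1685.7 and +1728.1 kb.

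These calls depended on single libraries and on the scaling. With 1 DKO library left out, 0 of the 30 sites passed the FDR, whichever of the 2 it was, while every difference kept its sign. Without DKO replicate 1 the difference at +1680.2 kb was −1.62 and at +1728.1 kb 2.55, both larger than with it, and at +1625.7 kb it shrank to −0.98. Without DKO replicate 2 these were −1.32, 1.653 and −2.21. Without Daxx-WT replicate 1, 13 higher and 1 lower passed, the lower one being +1625.7 kb. With each library's reads divided by its mean per window, 4 higher (+172.6, +177.7, +365.1 and +1728.1 kb) and 7 lower passed, all 5 cluster sites in peaks among the lower, and +1673.1 kb then stood at −1.31 (limma FDR = 0.045). The direction of the difference was the same at all 30 sites under both scalings.

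On the Pvt1 side the DKO table listed 2 lower sites, both in peaks. At +142.6 kb (chr15:62127601-62128300) the DKO libraries held 24.39 and 26.23 scaled reads and the Daxx-WT libraries 62.12 and 46.07, a log2 difference of −1.05 (limma FDR = 0.0376). At +221.2 kb, in the +221.3 kb region described above, they held 57.26 and 55.27 against 108.27 and 88.84, a log2 difference of −0.79 (limma FDR = 0.252). Scaled to the mean per window they stood at −1.73 (limma FDR = 0.00567) and −1.48 (limma FDR = 0.0149). Neither region had a peak in the DKO list. Higher sites in Pvt1 numbered 11, all past the FDR. The largest difference of the locus was at +365.1 kb (chr15:62349801-62351100), with 99.68 and 80.57 scaled reads in DKO and 12.42 and 21.94 in Daxx-WT, a log2 difference of 2.37 (limma FDR = 2.74e-08). Next was +177.7 kb, with 37.11 and 45.91 against 7.10 and 7.68, a log2 difference of 2.33 (limma FDR = 4.61e-08). The other 7 of the 10 with the largest differences, +1728.1 kb apart, were +44.3, +172.6, +184.4, +192.8, +194.5, +238.0 and +1219.6 kb, at log2 differences of 1.66 to 2.04. Of all 10, only +192.8 kb lay in a peak.

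A short stretch of Pvt1 was listed as higher in both knockout tables, which share their Daxx-WT libraries. At +184.4 kb (chr15:62169301-62170350) the DKO libraries held 106.04 and 64.64 scaled reads against 15.97 and 25.23, a log2 difference of 1.99 (limma FDR = 4.58e-06), beside 1.73 for the overlapping Daxx-KO site. At +192.8 kb (chr15:62177251-62179200) they held 153.76 and 128.35 against 40.82 and 44.97, a log2 difference of 1.69 (limma FDR = 0.000129), beside 1.18 for the Daxx-KO site. The peak there, at +192.6 kb over a Pvt1 exon, was in the DKO, Daxx-KO CMP and both GMP lists. With reads divided by the mean per window the DKO differences were 1.32 (limma FDR = 0.0863) and 1.01 (limma FDR = 0.172).

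Beyond the cluster, the +1939.1 kb site over Gsdmcl-ps held 255.56 and 222.97 scaled reads in DKO and 110.04 and 117.36 in Daxx-WT, a log2 difference of 1.06 (limma FDR = 0.034), which fell to 0.37 and lost the call when scaled to the mean per window. Its region had a peak in the DKO list and in every LT-HSC, CMP and GMP list, but in neither other KLS list. It is the place of the higher LT-HSC site at 3 d.p.i. Both sites lie among the tandem gasdermin genes, between whose copies reads can be misplaced. No table listed a site over Myc itself or within 1000 bp of its start, and the nearest were at −9.0 kb (lower in Daxx-KO KLS cells) and +44.3 kb.

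**Figure D5:**
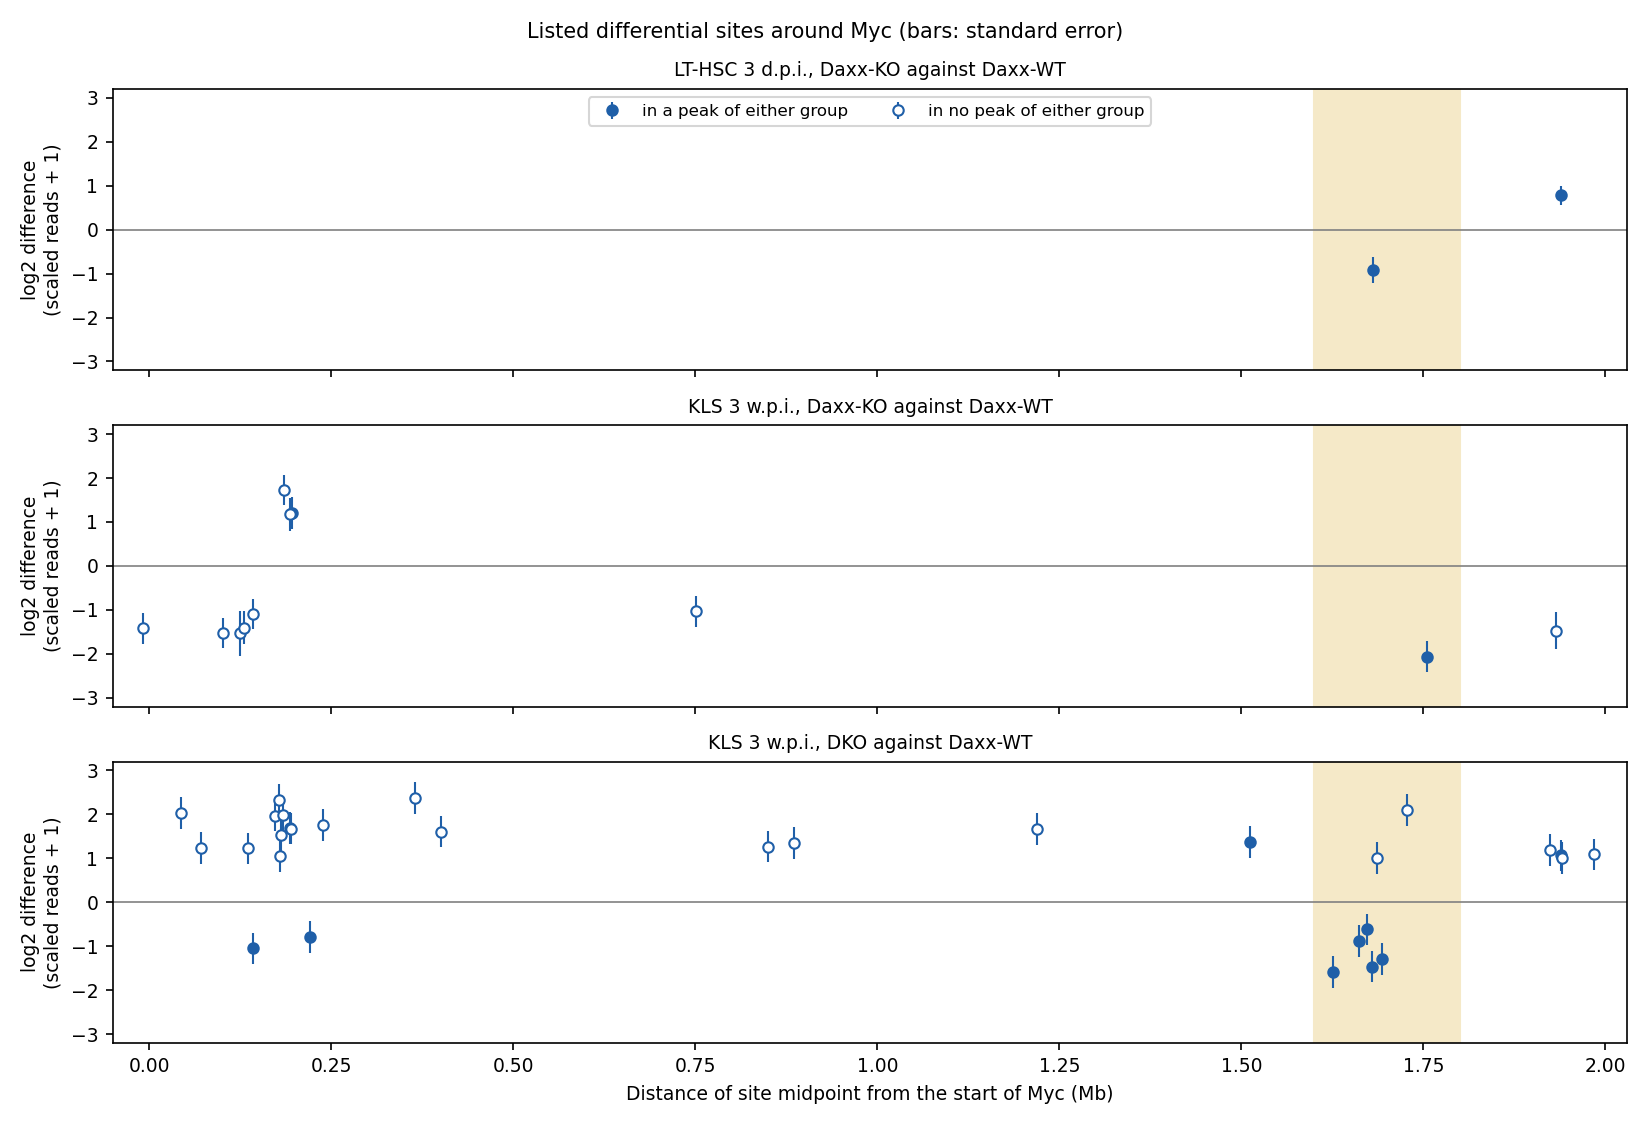
Log2 difference (knockout minus Daxx-WT, scaled reads + 1) with its SE for each listed site by distance from the start of Myc in Mb, in the 3 tables; filled points overlap a peak of either group and the band is the enhancer cluster. In the DKO panel the 5 filled cluster points lie between −0.62 and −1.59 and all open points lie above 0.

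Genes that work with Myc were taken as 2 lists, its partners and antagonists (Max, Mlx, Mlxip, Mlxipl, Mxd1, Mxd3, Mxd4, Mxi1, Mnt, Mga, Mycn and Mycl) and its regulators (Fbxw7, Huwe1, Usp28, Zbtb17 and Smarca4). All 17 had a promoter peak in all 11 lists, as had 49.3% of 21911 protein-coding genes. They had 6 listed sites in the LT-HSC table and 16 in that of Daxx-KO KLS cells, none past the FDR with limma. In DKO KLS cells the 12 partners and antagonists had 21 sites, 13 past the FDR as higher in 7 genes and 1 as lower, with a median log2 difference of 1.19 beside 1.29 over the table. The 5 regulators had 23 sites, 19 past the FDR as higher in 4 genes and 2 as lower, with a median of 1.37. Over all listed sites 67.3% passed as higher and 14.9% as lower.

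The lower DKO sites past the FDR were in Mycn and Fbxw7. Lower sites that did not pass were also listed in Mxd1 and Mxi1, at log2 differences of −0.68 and −0.82. Mycn is the paralogue of Myc that stem cells also use. Its site at chr12:12937801-12939250 held 57.49 ± 4.82 scaled reads in DKO and 132.12 ± 23.99 in Daxx-WT (SD, n = 2 and 2), a log2 difference of −1.18 (limma FDR = 0.0135). At 2 further Mycn sites, beside the gene and over an exon, the DKO means were 125.51 and 87.84 and the Daxx-WT means 220.79 and 166.77, with limma FDR of 0.203 and 0.1. In Daxx-KO KLS cells the listed Mycn site was another one, over an exon at chr12:12939551-12940150, and overlapped none of the DKO sites. It held 54.72 ± 5.62 scaled reads against 30.54 ± 7.06 in Daxx-WT (SD, n = 3 and 2), a log2 difference of 0.84 (limma FDR = 0.599). Fbxw7, the ubiquitin ligase subunit that marks Myc for destruction, had 2 lower intron sites in DKO at log2 differences of −1.09 and −1.16 (limma FDR = 0.0288 and 0.0159) and 3 with differences above 0, at 1.05 (limma FDR = 0.0377), 1.004 (limma FDR = 0.0548) and 0.81 (limma FDR = 0.227). Without Daxx-WT replicate 1, the 2 lists had 16 higher and 0 lower sites past the FDR in place of 32 and 3, and with either DKO library left out they had none.

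Among 10917 protein-coding genes with a promoter peak in all 5 scored lists, those with percentiles most like Myc were Slco3a1, Wipf1 and Psmb10, at Euclidean distances of 5.43, 6.92 and 7.61 percentile points over the 5 lists. Slco3a1, a solute carrier, stood at 49.8 and 46.8 in the Daxx-WT and Daxx-KO lists of LT-HSCs and at 35.2, 36.98 and 30.2 in the Daxx-WT, Daxx-KO and DKO lists of KLS cells.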

How the data were processed

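ATAC-seq was performed on 24 libraries of sorted mouse bone marrow cells. Per the labels, the submitters used CASAVA 1.8.4, cutadapt 1.13, STAR 2.5.3 and bedtools with mm10. There is 1 peak list per group, and the study describes those of KLS cells as reproducible by IDR (irreproducible discovery rate). For 5 of the 11 lists the authors deposited fold enrichment as a ratio and a score, and for 6 only positions. The peak caller's settings are not given in the sources used here. Per the file headers, the 3 differential tables were made with diffReps 1.55.6 (600 bp windows, 50 bp steps, 100 bp fragments) and hold the deposited counts divided by a constant per library. Whole reads were recovered from 100.0% of values under 20 reads (tolerance 0.15). The authors' fold changes and p-values in these tables, and the −log10 columns of the lists, were not used.

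Peaks were merged where they overlapped by 1 bp, and a region was present in a list with any overlapping peak. Genes came from GENCODE M21 and bases from the GRCm38 reference. Differences were tested with limma 3.58.1 in R 4.3.3 on log2(scaled reads + 1), two-sided, with Benjamini-Hochberg adjustment over the 413247, 407030 or 446463 windows that the headers report. This understates changes at low counts. Sites had been selected on the same contrast, so p-values are not independent of the selection. The study describes its replicates as biological ones. Scripts were tested on simulated data. Of the Myc network, 1 regulator is not reported here.

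Named were the regions at Myc, those of the cluster, those in all lists or split by genotype, and every listed site or, above 15 in a table, the 10 with the largest differences. Regions, gene lists and further sites were chosen with earlier results of these data known. Region patterns across cell types were chosen after their values were seen. Alternatives covered the pseudocount (0.5 and 5), a mean of at least 5, the scaling, the adjustment, left-out libraries, a replicate block, list length, score, merging and segment limits. The replicate numbers did not pair the KLS libraries (correlation of deviations 0.035 and −0.003). Python with pandas and matplotlib made the tables and figures.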

Additional observations from a re-analysis of the deposited data

How the results depend on the processing

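No site near Myc changed direction under any alternative run. Among network sites, 1 in Mlx that did not pass moved from 0.68 to −0.006 when scaled to the mean per window. A changed pseudocount, a filter on low values, the presence rule and merging of peaks left the counts near Myc within 1.5 times of those reported, with these exceptions. At a pseudocount of 5 the Daxx-KO KLS table had 1 higher and 2 lower sites near Myc past the FDR in place of 0, and the genes of the Myc network 3 lower sites there. Adjusted over the listed sites alone, calls near Myc were 1 higher and 1 lower in the LT-HSC table and 3 and 8 for Daxx-KO KLS cells, and for the network 0 and 6, 4 and 12, and in DKO 6 lower. Scaled to the mean per window, the DKO table had 4 higher and 7 lower sites near Myc in place of 21 and 4, and 2 and 7 for the network in place of 32 and 3, while the median log2 difference of all its sites moved from 1.29 to 0.62. With single libraries left out, the DKO calls ranged from 0 to 18 higher and 0 to 4 lower near Myc, and from 0 to 29 and 0 to 2 for the network. A fit with 1 library in a group assumes that it varies like the others.

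With the replicate number as a block, Daxx-KO KLS cells had 1 higher and 1 lower site near Myc and 2 lower for the network, while DKO cells had 22 higher and 4 lower near Myc, with no other call moved by over 1.5 times. For LT-HSCs at 3 d.p.i. no paired analysis was possible because the columns carry no replicate number of the labels. With scored lists reduced to 22156 peaks, regions near Myc numbered 7 and 11 in the Daxx-WT and Daxx-KO lists of LT-HSCs (3 d.p.i.) and 12 for Daxx-KO KLS cells, and cluster regions 4 and 7 in the LT-HSC lists. At a score of at least 540 the DKO list kept 3 cluster regions. With the cluster segment shifted away from Myc, Daxx-WT LT-HSCs at 3 d.p.i. had 4. In the central 200 bp, the Pu.1 motif was in 0 and the Gata motif in 1 of the cluster regions. The planned count-based tests and their normalisations were not run. Depth of 4.21 to 16.0 reads per window limits what weak sites can show, and each group has 1 peak list, so absence of a peak has no error.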
